A study of Mus musculus with 7 samples.

Results

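Tcf7, Lef1, Il7r, Tox, Tbx21, Eomes, Prdm1, Id2 and Batf regulate whether an activated T cell becomes a stem-like, memory, effector or exhausted cell. They were taken by name from the list of stem-like, memory, effector and exhausted state genes and found by matching the Ensembl identifiers of the count table to mouse symbols. All 9 are among the 22629 rows of the table, and all 9 are among the 17489 genes with enough counts for a test.

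An activated CD8 T cell can keep the capacity to divide and to form memory, or it can spend it on killing. TCF1 and LEF1, together with the IL-7 receptor, mark the cells that keep it, whereas T-bet, Blimp-1, ID2 and BATF drive effector functions. When antigen persists, as in a tumor, TOX sets up the exhausted state, in which T cells keep inhibitory receptors such as PD-1 on their surface, and EOMES is high in many of these cells.

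The study sequenced RNA of 7 s/c tumors of C57BL/6 mice, 3 grown from sgScramble control PDA cells and 4 from sgScramble control PDA cells expressing icOVA, to compare tumors without and with a strong foreign antigen. The PDA cells were 1242 KPC cells, a line from a pancreatic tumor of a genetically engineered mouse. Both groups carried Cas9 and a scramble guide, and all tumors were taken 2 weeks after inoculation. The mice were bought at 6 weeks of age and housed for 2 weeks before use. icOVA is ovalbumin kept in the cytoplasm and expressed from a Dox-inducible lentiviral vector that also encodes GFP. It was induced with Dox food from day 0 in cells that had been sorted and cloned from single cells, so an icOVA tumor may trace to 1 clone. The paper describes s/c tumors of cells with this vector in mice given Dox or not, but does not tie the sequenced sgScramble tumors to either. Whether the cells of those tumors held the vector is thus not given in the sources used here, nor is whether they were polyclonal or a clone. The methods of the paper state a larger number of inoculated cells for ovalbumin-inducible tumors than the default for s/c tumors. Which number applied to the sequenced sgScramble tumors is not given, so the groups may differ in it. A figure legend of the paper calls the cells of the groups paired, but the labels list the tumors as separate samples and give no pairs of tumors. The sgScramble tumors are numbered 1, 4 and 5 and had total counts of 34723344, 32771160 and 30904855. The icOVA tumors are numbered 15, 16, 18 and 2, with totals of 37510591, 35612477, 34436971 and 32062089. Values are given below in this order of tumors as CPM, counts divided by the library size after TMM scaling, unless another unit is named.

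Counts of the OVA transcript were 151, 85 and 92 in the sgScramble tumors, and in the icOVA tumors they were 6871, 10750, 3413 and 7989. The groups were far apart, as their labels state. RNA of T cells was present in every tumor. Cd3e, which encodes a chain of the CD3 complex of the T cell receptor, had 9.21, 14.6 and 11.7 CPM in the sgScramble tumors and 35.2, 21.3, 29.4 and 27.7 CPM in the icOVA tumors. Each icOVA tumor was above each sgScramble tumor, with icOVA tumor 16 the lowest of the 4, and the log2 fold change was 1.27 (SE 0.21, adjusted p = 0.0271, quasi-likelihood test of edgeR, Benjamini-Hochberg adjustment over all genes tested, threshold 0.05). Of 16 T cell marker genes, 14 rose in icOVA tumors by this test and 0 fell (0 also at an unadjusted p under 0.05, by DESeq2 and by limma-voom), with a median log2 fold change of 1.27 against -0.0048 over all genes tested. Their summed level was 166, 252 and 192 CPM in the sgScramble tumors and 567.6, 358, 523 and 448 CPM in the icOVA tumors. The most abundant was Cd8a, a CD8 chain of killer T cells, with 40.9 ± 14.0 CPM (SD, n = 3) and 80.7 ± 13.3 CPM (SD, n = 4), and its adjusted p of 0.0505 from edgeR did not pass. It passed with DESeq2 (0.000783), limma-voom (0.0464), the size factors of DESeq2 (0.0499) and a filter of at least 10 counts in every tumor (0.0469). Large changes were in Cd247, the zeta chain of the receptor complex, at 1.62, Cd4 at 1.44 and the receptor constant region Trbc2 at 1.36, with SEs of 0.20, 0.28 and 0.22, and Cd4 did not pass by limma-voom (adjusted p = 0.0523). Trbc2 has a near-identical neighbour, Trbc1, between which counting could have split reads. No marker of the list was at 0. In bulk tumors, a larger number of T cells and more RNA per T cell cannot be told apart.

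Of the 9 regulators, 3 rose in icOVA tumors. They were Il7r, Eomes and Batf, with log2 fold changes of 1.02, 1.05 and 1.21, beside 1.27 for Cd3e. None fell by edgeR, with 1 lower and 6 higher at an unadjusted p under 0.05, 5 higher and 0 lower by DESeq2, and 2 higher and 0 lower by limma-voom. Among all genes tested, 3.36% were higher and 2.54% were lower by the edgeR test. By CPM, 5 regulators were above every sgScramble tumor in every icOVA tumor, and 1, Tox, was below, against 11.3% and 13.3% of all genes. The median log2 fold change of the 9 was 0.85. The calls of all genes, and not of the regulators alone, were sensitive to single tumors. No gene of the table passed when tumor 1 or 5 of the sgScramble group or tumor 15 of the icOVA group was dropped, and 6 higher and 2 lower genes passed without icOVA tumor 2, so that none of the 9 passed in these fits. The log2 fold changes with each tumor left out ran from 0.85 to 1.13 for Il7r, 0.94 to 1.21 for Eomes and 1.11 to 1.30 for Batf. Without sgScramble tumor 1, sgScramble tumor 5, icOVA tumor 15 or icOVA tumor 2, the edgeR adjusted p of Il7r was 0.115, 0.122, 0.0871 and 0.0669. That of Batf was 0.115, 0.125, 0.0748 and 0.0619 in the same fits, that of Eomes was 0.155, 0.202, 0.132 and 0.0985, and that of Cd3e was 0.119, 0.134, 0.0748 and 0.0648. Without icOVA tumor 16, which had the lowest Cd3e level of its group, 5 passed, with Lef1 (edgeR adjusted p = 0.0243) and Tbx21 (edgeR adjusted p = 0.0319) added.

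**Figure D1:**
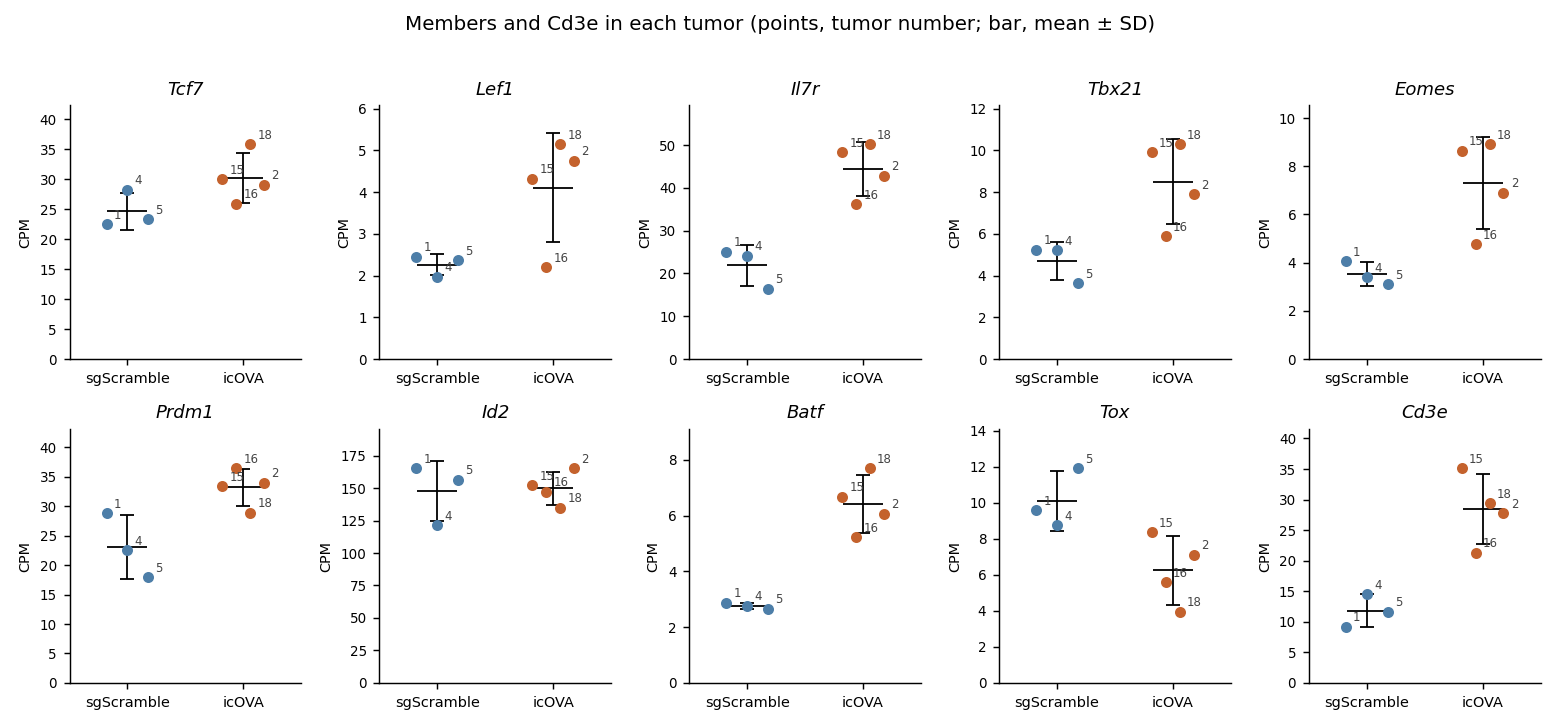
CPM of the 9 regulators and Cd3e in each tumor. Points are tumors with their numbers, and bars are the mean and SD of 3 sgScramble and 4 icOVA tumors. Il7r, Eomes, Batf, Tbx21 and Prdm1 have no overlap between groups and are higher in icOVA tumors, Tox has none and is lower, and Tcf7, Lef1 and Id2 overlap.

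Per length of their exons, on the TPM scale, the regulators differed widely in level. Id2 was highest with a mean of 185 TPM over the 7 tumors, above 96.7% of all rows of the table, and was followed by Tcf7 at 32.2, Il7r at 22.6, Prdm1 at 15.7, Batf at 10.5, Tbx21 at 8.396, Eomes at 4.16, Tox at 3.14 and Lef1 at 1.15 TPM. Cd3e had a mean of 15.9 TPM. Within each icOVA tumor, Tcf7 was above Il7r and Batf was above Tbx21, although the ranges over the 4 tumors overlapped, while Prdm1 was above Batf and Tox above Lef1 in 3 of the 4. In sgScramble tumors, Batf was above Tbx21 in 1 of 3. Id2 stood above all others in every tumor. In sgScramble tumors, Tox, at 4.01 ± 0.577 TPM (SD, n = 3), ranked above Eomes, at 2.57 ± 0.374 TPM (SD, n = 3). In icOVA tumors the order was turned, with 2.48 ± 0.761 TPM for Tox and 5.35 ± 1.504 TPM for Eomes (SD, n = 4), and neither pair of ranges overlapped. The TPM of Id2 was 8.80 times that of Cd3e in icOVA tumors and 20.9 times in sgScramble tumors. For Tcf7 these ratios were 1.65 in icOVA tumors and 3.24 in sgScramble tumors. Id2 and Prdm1 are also used by cells other than T cells. The share of RNA that came from T cells was not tested for any of the 9 regulators, Tox and Tcf7 included.

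Tcf7 and Lef1 encode TCF1 and LEF1, related transcription factors that keep T cells stem-like and, in the thymus, guide T cell development. Tcf7 (ENSMUSG00000000782.16, chr11:52252371-52283014 of GRCm38, minus strand) had 22.5, 28.2 and 23.3 CPM in the sgScramble tumors and 30.0, 25.9, 35.8 and 29.1 CPM in the icOVA tumors. The groups overlapped, as icOVA tumor 16 was below sgScramble tumor 4. Its log2 fold change was 0.29 (SE 0.13, 95% interval -0.014 to 0.60) and did not pass (edgeR adjusted p = 0.200). Lef1 (ENSMUSG00000027985.14, chr3:131110471-131224356, plus strand) had 2.45, 1.97 and 2.37 CPM in the sgScramble tumors and 4.32, 2.21, 5.15 and 4.76 CPM in the icOVA tumors. In 3 of the 4 icOVA tumors it was above every sgScramble tumor, and icOVA tumor 16 lay within their range. The change of 0.86 on the log2 scale (SE 0.30) came with an adjusted p of 0.117 from edgeR, and without icOVA tumor 16 it was 1.07 with an adjusted p of 0.0243. Lef1 is thinly covered, with 65 to 179 counts per tumor.

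Among 14 other stem-like and memory genes, 5 rose and 0 fell by edgeR (7 higher and 0 lower at an unadjusted p under 0.05 and by DESeq2, and 4 and 0 by limma-voom), with a median log2 fold change of 0.79. Cd27 and Cd28, which encode costimulatory receptors, rose by 1.55 and 1.52 (SE 0.22 for each), and their adjusted p was 0.0230 from edgeR. Satb1, which encodes a chromatin organizer of T cells, rose by 1.196 (SE 0.24, edgeR adjusted p = 0.0351), a call that was not made by limma-voom (adjusted p = 0.0588). Slamf6, a surface receptor of stem-like exhausted cells named after its values were seen, rose by 1.09 (SE 0.14). Foxo1, the most abundant of the list and a transcription factor with many uses outside T cells, averaged 79.2 ± 5.21 CPM (SD, n = 3) and 71.6 ± 11.9 CPM (SD, n = 4).

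Il7r (ENSMUSG00000003882.5, chr15:9505788-9530176, minus strand) encodes the alpha chain of the IL-7 receptor, which carries the survival signal of naive and memory T cells. It had 25.1, 24.2 and 16.5 CPM in the sgScramble tumors and 48.3, 36.2, 50.2 and 42.8 CPM in the icOVA tumors. No icOVA tumor was as low as any sgScramble tumor, and the lowest of them was tumor 16. Il7r rose by 1.02 on the log2 scale (SE 0.18, edgeR adjusted p = 0.0277), a ratio of mean CPM of 2.03. The adjusted p ran from 4.88e-06 with DESeq2 to 0.0301 over the alternatives that kept all tumors, and up to 0.122 when a tumor was left out. Of the 14 genes listed for IL-7 receptor signalling, 2 rose and 0 fell by edgeR (7 higher and 1 lower at an unadjusted p under 0.05, 6 and 0 by DESeq2, 3 and 0 by limma-voom), and their median log2 fold change was 0.27. Il2rg, the common gamma chain that pairs with the alpha chain, had 64.6, 85.5 and 62.9 CPM in the sgScramble tumors and 145, 125, 158 and 129.9 CPM in the icOVA tumors. It rose in the same range as Il7r, by 0.98 (SE 0.13, edgeR adjusted p = 0.0230). Socs1, an inhibitor of the signal, rose by 0.44 (SE 0.10, edgeR adjusted p = 0.0425), and had an adjusted p of 0.0524 without a filter on low counts. Jak1, the most abundant of the list and the kinase bound to the alpha chain, averaged 181 ± 19.1 CPM (SD, n = 3) and 236 ± 22.4 CPM (SD, n = 4), with an adjusted p of 0.0705 from edgeR and 0.00934 from DESeq2.

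The T-box factors T-bet and EOMES are encoded by Tbx21 and Eomes and direct the cytotoxic genes of CD8 T cells and NK cells. Eomes (ENSMUSG00000032446.14, chr9:118478212-118486132, plus strand) had 4.06, 3.40 and 3.10 CPM in the sgScramble tumors and 8.64, 4.76, 8.92 and 6.90 CPM in the icOVA tumors. The groups did not overlap, though icOVA tumor 16 was close to sgScramble tumor 1. Eomes rose by 1.05 (SE 0.24, edgeR adjusted p = 0.0482). This call was narrow, with an adjusted p of 0.0686 by limma-voom, 0.0504 with total counts and 0.0532 without a filter, and of 0.0775 without sgScramble tumor 4 and 0.0657 without icOVA tumor 18. Tbx21 (ENSMUSG00000001444.2, chr11:97098071-97115331, minus strand) had 5.24, 5.23 and 3.65 CPM in the sgScramble tumors and 9.91, 5.87, 10.3 and 7.90 CPM in the icOVA tumors. It too was higher in each icOVA tumor than in any sgScramble tumor, with tumor 16 lowest. Its log2 fold change of 0.85 (SE 0.24) did not pass (edgeR adjusted p = 0.0743), though it passed with DESeq2 (adjusted p = 0.00950) and without icOVA tumor 16 (edgeR adjusted p = 0.0319).

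Markers of NK cells and innate lymphoid cells, which also use T-box factors, were measured beside these values. Of 10 such genes, 1 rose and 1 fell by edgeR (5 and 1 at an unadjusted p under 0.05 and by DESeq2, 0 and 1 by limma-voom), with a median log2 fold change of 0.87. Their summed level was 97.8, 117 and 81.9 CPM in the sgScramble tumors and 192, 111, 222 and 140.2 CPM in the icOVA tumors, and icOVA tumor 16 was again lowest in its group. Klrd1, which encodes CD94 of NK cells and some CD8 T cells, rose by 0.97 (SE 0.22, edgeR adjusted p = 0.0455), but had an adjusted p of 0.0616 by limma-voom. The most abundant was Klrk1, which encodes NKG2D, with 21.5 ± 5.49 CPM (SD, n = 3) and 44.8 ± 12.5 CPM (SD, n = 4). Klrk1 did not pass (edgeR adjusted p = 0.0524), but did with DESeq2 (0.000927) and with a filter of at least 10 counts in every tumor (0.0485). No gene of the list was at 0, and the part of these cells in the values of Tbx21 and Eomes was not tested.

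Batf encodes an AP-1 factor that acts with JUN proteins and IRF4 in activated T cells. Batf (ENSMUSG00000034266.6, chr12:85686669-85709087, plus strand) had 2.88, 2.76 and 2.65 CPM in the sgScramble tumors and 6.67, 5.22, 7.71 and 6.06 CPM in the icOVA tumors. The sgScramble tumors were close together and all icOVA tumors were well above them. Batf rose by 1.21 (SE 0.17, edgeR adjusted p = 0.0230), the largest log2 fold change of the 9, and passed under each alternative that kept all tumors, with an adjusted p of at most 0.0260. Its partner gene Irf4 had 4.38, 7.23 and 4.73 CPM in the sgScramble tumors and 17.9, 10.9, 15.1 and 13.1 CPM in the icOVA tumors. Irf4 rose by 1.39 (SE 0.24, edgeR adjusted p = 0.0273), and Irf8, a related factor of myeloid and B cells, rose by 0.79 (SE 0.13, edgeR adjusted p = 0.0271). The AP-1 gene Junb had 111, 109 and 88.8 CPM in the sgScramble tumors and 67.1, 80.4, 79.7 and 77.6 CPM in the icOVA tumors. Junb fell by 0.43 (SE 0.10) with an adjusted p of 0.0499924 from edgeR, at the edge of the threshold, and did not pass by limma-voom (adjusted p = 0.0564), with the upper quartile (0.0516), with the size factors of DESeq2 (0.0539), without a filter (0.0600) or with robust dispersion (0.0509).

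These partners belong to a list of 20 family relatives and DNA-binding partners of the regulators, of which all but Tox3 were tested. Of the 19, 2 rose and 2 fell by edgeR (5 and 5 at an unadjusted p under 0.05, 3 and 4 by DESeq2, 2 and 1 by limma-voom), and the median log2 fold change was -0.00018. The other gene that fell was Ctnnb1, the most abundant of the list, which encodes beta-catenin, a coactivator of TCF1 and LEF1 and a part of epithelial cell junctions. Ctnnb1 had 957, 849 and 1006 CPM in the sgScramble tumors and 682, 764, 593 and 676 CPM in the icOVA tumors. All icOVA tumors were below all sgScramble tumors, and it fell by 0.47 (SE 0.11, edgeR adjusted p = 0.0472), with an adjusted p of 0.0571 without a filter on low counts.

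Prdm1 encodes Blimp-1, a repressor that drives terminal differentiation of effector T cells and of plasma cells. Prdm1 (ENSMUSG00000038151.13, chr10:44437177-44528501, minus strand) had 28.8, 22.5 and 17.9 CPM in the sgScramble tumors and 33.4, 36.5, 28.9 and 34.0 CPM in the icOVA tumors. The groups did not overlap, but icOVA tumor 18 and sgScramble tumor 1 were nearly equal. Its log2 fold change of 0.52 (SE 0.16) did not pass with edgeR (adjusted p = 0.0927) and passed with DESeq2 (adjusted p = 0.0250). Id2 encodes an inhibitor of E proteins that effector T cells and innate lymphocytes need. Id2 (ENSMUSG00000020644.9, chr12:25093799-25097140, minus strand) had 165, 121 and 156 CPM in the sgScramble tumors and 152, 147, 135 and 165 CPM in the icOVA tumors. The groups overlapped, with sgScramble tumor 4 below every icOVA tumor, and the log2 fold change of 0.02 (SE 0.12, edgeR adjusted p = 0.930) had a 95% interval of -0.26 to 0.30.

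Tox is the regulator of the exhausted state. Tox (ENSMUSG00000041272.11, chr4:6686353-6991557, minus strand) had 9.59, 8.75 and 11.9 CPM in the sgScramble tumors and 8.35, 5.59, 3.94 and 7.12 CPM in the icOVA tumors. It was lower in each icOVA tumor than in any sgScramble tumor, by a small margin between icOVA tumor 15 and sgScramble tumor 4. The log2 fold change was -0.69 (SE 0.25) and did not pass (edgeR adjusted p = 0.134, and 0.0675 to 0.151 over the alternatives that kept all tumors). Tox thus had the only negative log2 fold change among the 9 regulators, and it was negative with each tumor left out, from -0.85 to -0.52.

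Of 23 other effector and exhaustion genes, 9 rose and 0 fell by edgeR (14 higher and 0 lower at an unadjusted p under 0.05 and by DESeq2, 10 and 0 by limma-voom), with a median log2 fold change of 0.73. By CPM, 13 were above every sgScramble tumor in every icOVA tumor and 0 were below, against 11.3% and 13.3% of all genes. The other 10 overlapped between the groups. Pdcd1, which encodes PD-1, had 10.2, 14.1 and 12.9 CPM in the sgScramble tumors and 43.5, 25.5, 34.5 and 29.4 CPM in the icOVA tumors. Lag3, which encodes another inhibitory receptor, had 15.7, 22.5 and 15.3 CPM in the sgScramble tumors and 41.2, 35.8, 44.5 and 39.7 CPM in the icOVA tumors. Both were higher in every icOVA tumor, and the log2 fold changes were 1.42 (SE 0.20) and 1.17 (SE 0.15), each with an adjusted p of 0.0230 from edgeR. Ifng, the gene of interferon gamma, rose by 1.08 (SE 0.22, edgeR adjusted p = 0.0352), but had an adjusted p of 0.0513 by limma-voom. Bhlhe40, the most abundant of the list and a factor used by many cell types, averaged 287 ± 96.97 CPM (SD, n = 3) and 235 ± 58.7 CPM (SD, n = 4).

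The tumors of a group were not alike in these genes. The highest icOVA tumor was tumor 18 in Tcf7, Lef1, Il7r, Tbx21, Eomes and Batf, and tumor 16 was lowest in the same 6 genes. Tumor 18 was also lowest of the 4 in Tox, Prdm1 and Id2, and tumor 16 was highest in Prdm1. Among the sgScramble tumors, tumor 1 was highest in 7 of the 9 genes, all but Tcf7 and Tox, although its Cd3e level was the lowest of all 7 tumors.

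The regulators were then scaled to Cd3e, which gives their RNA, from all cells of a tumor, per unit of RNA of the T cell receptor complex. By the edgeR test with each tumor's Cd3e count in place of its library size, no regulator was higher in icOVA tumors and 4 regulators were lower (0 and 4 also at an unadjusted p under 0.05, by DESeq2 and by limma-voom). The background of this comparison is shifted, as 84.2% of all genes were lower and 0.315% were higher, with a median log2 fold change of -1.27, which mirrors the rise of Cd3e itself. A gene that did not change per library is therefore lower here, and 4 of 9 is a smaller share than that of all genes. All genes share the same 7 Cd3e values, so that their errors are not independent, and the test took 54.9 degrees of freedom against 7.79 in the test per library. Its p-values are therefore too small, and the ratio in each tumor and an exact permutation test on its log2 are given beside them, an alternative chosen after seeing the data.

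The regulators that were lower relative to Cd3e were Tcf7, Tox, Prdm1 and Id2. Tcf7 had 2.44, 1.94 and 1.99 counts per Cd3e count in the sgScramble tumors and 0.854, 1.21, 1.22 and 1.05 in the icOVA tumors. All icOVA tumors were below all sgScramble tumors, and the log2 fold change was -0.97 (SE 0.27, edgeR adjusted p = 0.00125). This was above the median of all genes, -1.27, and the log2 fold change of Tcf7 per library was 0.29. Tox had 1.04, 0.601 and 1.02 counts per Cd3e count in the sgScramble tumors and 0.237, 0.262, 0.134 and 0.257 in the icOVA tumors. The groups were far apart, and the log2 fold change of -2.0 (SE 0.32, edgeR adjusted p = 2.79e-06) was below the median of all genes. Id2 had 17.96, 8.34 and 13.4 counts per Cd3e count in the sgScramble tumors and 4.33, 6.90, 4.58 and 5.96 in the icOVA tumors. These did not overlap either, and the log2 fold change of -1.28 (SE 0.31, edgeR adjusted p = 0.000261) was close to that median. The exact two-sided permutation test gave p = 0.0571 for each of Tcf7, Tox and Id2, the smallest that 3 against 4 tumors allow. Prdm1 had 3.13, 1.55 and 1.54 counts per Cd3e count in the sgScramble tumors and 0.950, 1.71, 0.982 and 1.23 in the icOVA tumors. The groups overlapped through icOVA tumor 16. The log2 fold change of -0.77 (SE 0.29, edgeR adjusted p = 0.0144, exact permutation p = 0.171) was -0.34 without sgScramble tumor 1, with an adjusted p of 0.315 from edgeR. With all tumors kept, Prdm1 too lay above the median of all genes, and its log2 fold change per library was 0.52.

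The 3 regulators that rose per library had ratios to Cd3e that overlapped between the groups. Batf had 0.313, 0.190 and 0.227 counts per Cd3e count in the sgScramble tumors and 0.190, 0.245, 0.262 and 0.219 in the icOVA tumors. The ranges overlapped, with sgScramble tumor 1 above every icOVA tumor, and the log2 fold change was -0.09 (SE 0.35, edgeR adjusted p = 0.818), and 0.13 without sgScramble tumor 1. Il7r had 2.72, 1.66 and 1.41 counts per Cd3e count in the sgScramble tumors and 1.37, 1.70, 1.71 and 1.54 in the icOVA tumors. Eomes had 0.441, 0.234 and 0.266 in the sgScramble tumors and 0.246, 0.223, 0.303 and 0.249 in the icOVA tumors. In both, sgScramble tumor 1 was the highest of all 7, and the other tumors overlapped. The log2 fold changes were -0.29 for each, with SEs of 0.28 and 0.34 and adjusted p-values of 0.333 and 0.419 from edgeR, and without sgScramble tumor 1 they were 0.04 and 0.03. Their 95% intervals, -0.85 to 0.28 and -0.98 to 0.39, come from the fit that shares the Cd3e values and are therefore too narrow.

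Lef1 and Tbx21 lay between these. Lef1 had 0.266, 0.136 and 0.203 counts per Cd3e count in the sgScramble tumors and 0.123, 0.103, 0.175 and 0.172 in the icOVA tumors. Tbx21 had 0.569, 0.359 and 0.312 in the sgScramble tumors and 0.282, 0.276, 0.350 and 0.285 in the icOVA tumors. Both overlapped between the groups, with log2 fold changes of -0.48 (SE 0.37) and -0.47 (SE 0.33) that did not pass (adjusted p = 0.215 and 0.178 from edgeR), and without sgScramble tumor 1 they were -0.24 and -0.17. Whether the change of 1 regulator relative to Cd3e differs from that of another was not tested.

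**Figure D2:**
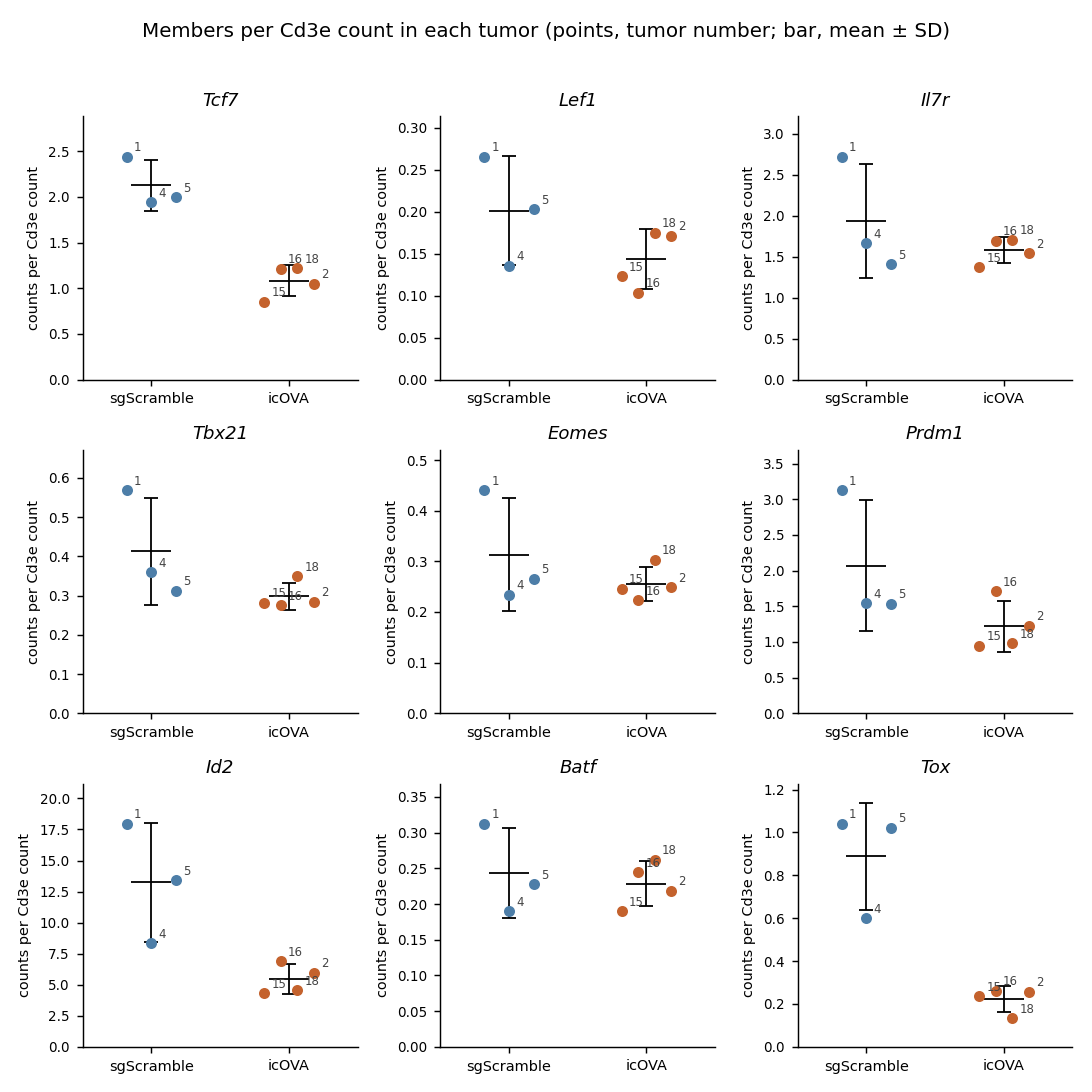
Counts of each regulator per Cd3e count in each tumor. Points are tumors with their numbers, and bars are the mean and SD of 3 sgScramble and 4 icOVA tumors. Tcf7, Tox and Id2 have no overlap between groups, and sgScramble tumor 1, with the fewest Cd3e counts, is the highest tumor in each panel.

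**Figure D3:**
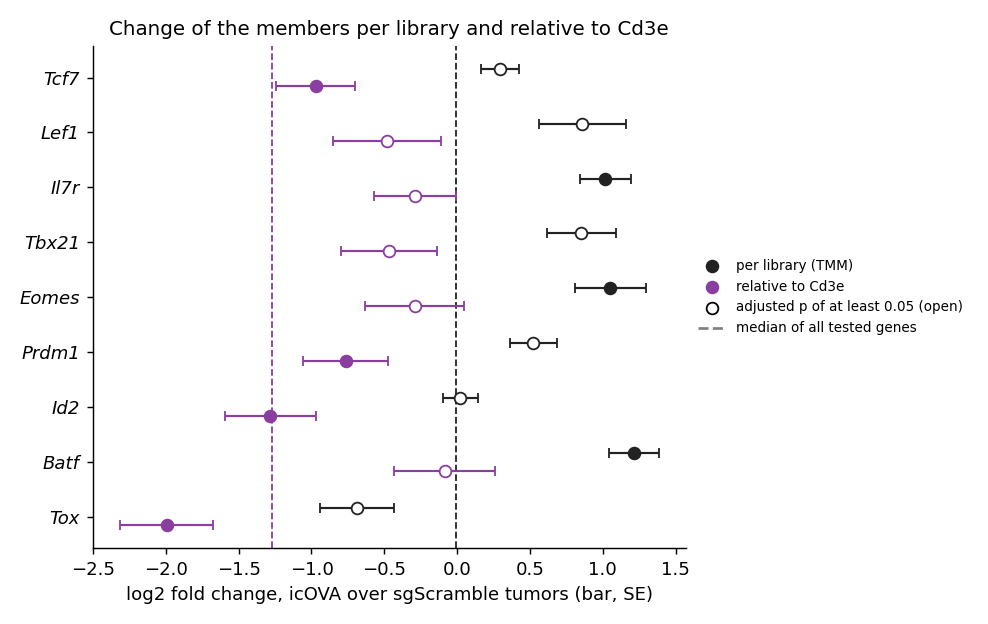
Log2 fold change of each regulator in icOVA over sgScramble tumors, per library (black) and relative to Cd3e (purple), with the SE as bars. Filled points have an adjusted p below 0.05, and the dashed lines are the medians of all genes tested, -0.0048 and -1.27. Relative to Cd3e, Il7r, Eomes and Batf lie near 0, Id2 lies at the median of all genes and Tox lies below it.

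The lists of T cell markers and T cell state genes were also compared relative to Cd3e. Of the other 15 T cell markers, 0 were higher and 0 were lower relative to Cd3e by edgeR (0 and 0 also at an unadjusted p under 0.05, by DESeq2 and by limma-voom), with a median log2 fold change of -0.0016. Of the 14 other stem-like and memory genes 0 were higher and 7 were lower, with a median of -0.53, and of the 23 other effector and exhaustion genes 0 were higher and 10 were lower, with a median of -0.53. For the 14 genes of IL-7 receptor signalling these were 0 and 10, with a median of -1.01, and for the 19 family relatives and partners 0 and 15, with a median of -1.27, which is that of all genes. Among all genes, 84.2% were lower and 0.315% were higher relative to Cd3e. The share of lower genes in each of these lists was smaller than that. None of these lists had a higher gene at an unadjusted p under 0.05, by DESeq2 or by limma-voom.

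Other cells that could hold RNA of the regulators also had markers with other levels in icOVA tumors. Of 12 myeloid markers, 3 rose and 0 fell by edgeR (6 and 0 at an unadjusted p under 0.05, 5 and 0 by DESeq2, 4 and 0 by limma-voom), with a median log2 fold change of 0.63. Their sum was 1678, 2318 and 2097 CPM in the sgScramble tumors and 3629.9, 3274, 4052 and 3207 CPM in the icOVA tumors. All icOVA tumors were above all sgScramble tumors in this sum. Lyz2, the lysozyme gene of macrophages and neutrophils and the most abundant, rose by 0.91 (SE 0.16, edgeR adjusted p = 0.0277), and Itgam and Cd68 rose by 0.83 and 0.82 (SE 0.14 and 0.16). No myeloid marker was at 0.

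Of the 10 B cell and plasma cell markers, 8 were tested, 2 rose and 1 fell by edgeR (2 and 2 at an unadjusted p under 0.05 and by DESeq2, 2 and 0 by limma-voom), and the median log2 fold change was 0.72. Their sum was 715, 653 and 774 CPM in the sgScramble tumors and 517, 618, 450.2 and 567 CPM in the icOVA tumors. Most of it was Sdc1, at 493.4 ± 33.5 CPM (SD, n = 3) and 363 ± 66.0 CPM (SD, n = 4), which passed as lower only with DESeq2 (adjusted p = 0.0360), and Xbp1, which fell by 0.40 (SE 0.09, edgeR adjusted p = 0.0487) and did not pass by limma-voom (adjusted p = 0.0542), with the size factors of DESeq2 (0.0503) or without a filter (0.0595). Epithelial cells use both of these genes. Jchain, the joining chain of secreted antibodies, had 0.749, 0.517 and 0.384 CPM in the sgScramble tumors and 2.38, 2.21, 4.11 and 7.52 CPM in the icOVA tumors. It rose by 2.87 (SE 0.53, edgeR adjusted p = 0.0309), and by 1.56 relative to Cd3e. Mzb1, a chaperone gene of plasma cells, had no count in any sgScramble tumor, while the icOVA tumors had 24, 17, 27 and 49, at least 28.3-fold higher against a floor of 3 counts over the sgScramble group. Relative to Cd3e, 2 of the 8 were lower by edgeR, against 84.2% of all genes. Jchain was higher relative to Cd3e by edgeR, at an unadjusted p under 0.05, by DESeq2 and by limma-voom. Mzb1 was counted as higher by each of these too, but it passed the count filter only through the icOVA tumors. Its calls, per library and relative to Cd3e, are therefore part of the counts of this list and support no conclusion. Plasma cells use Prdm1, and their part in its values was not tested.

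Lymph node and naive lymphocyte markers, a list that holds Tcf7 and Lef1, summed to 48.2, 68.3 and 44.9 CPM in the sgScramble tumors and 98.2, 70.5, 124 and 89.7 CPM in the icOVA tumors. Tcf7 was the most abundant, 1 of the 8 tested genes rose and 0 fell by edgeR (4 and 0 at an unadjusted p under 0.05, 3 and 0 by DESeq2, 1 and 0 by limma-voom), and the median log2 fold change was 1.0096. The follicular markers Cr2 and Fcer2a had too few counts for a test. The part of lymph node tissue in these values was not tested.

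Epithelial cancer cell markers had 0 genes higher and 0 lower of 8 by edgeR, at an unadjusted p under 0.05, by DESeq2 and by limma-voom, with a median log2 fold change of 0.05. They summed to 4933, 4631 and 4910.1 CPM in the sgScramble tumors and 4906, 4999.7, 2934 and 4647 CPM in the icOVA tumors, so that icOVA tumor 18 stood below the rest. The most abundant was Krt8, a keratin, at 1369.9 ± 83.0 CPM (SD, n = 3) and 1471 ± 253 CPM (SD, n = 4). For the 8 fibroblast and endothelial markers, 0 were higher and 0 were lower by edgeR (3 and 0 at an unadjusted p under 0.05 and by DESeq2, 0 and 0 by limma-voom), and the median log2 fold change was 0.86. Their sum was 4643, 10806 and 4378 CPM in the sgScramble tumors and 16570, 4001, 23390 and 6073 CPM in the icOVA tumors, with the collagen gene Col1a1 the most abundant. It varied more within groups than between them, and tumors 16 and 18 were again the lowest and the highest icOVA tumors. Skin and muscle markers, with 5 genes tested and 0 higher or lower by edgeR, at an unadjusted p under 0.05, by DESeq2 or by limma-voom, summed to 56.5, 59.2 and 3.58 CPM in the sgScramble tumors and 50.4, 115, 62.4 and 2.46 CPM in the icOVA tumors, with a median log2 fold change of 0.59. Acta1 of skeletal muscle was the most abundant, and its level followed no group. No tested gene of these lists was at 0 in all tumors, and the part of these tissues in the values of the regulators was not tested.

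Profiles over the 7 tumors were compared by the root mean square difference of centred log2 CPM among 14127 other genes with a mean count of at least 50. The nearest gene to Batf was Gpr132, a receptor gene, at 0.088, and that to Il7r was Adora2a, which encodes an adenosine receptor, at 0.088. For Tbx21 it was Il2rb, a chain of the receptors for IL-2 and IL-15, at 0.090, and for Eomes it was Klre1, a receptor gene of NK cells, at 0.093. For Tcf7, Lef1 and Prdm1 these were Twf2 at 0.039, Xlr4c at 0.15 and Fosb at 0.089. For Id2 and Tox they were Atp10d at 0.030 and Casz1 at 0.11. Cd3e ranked 193 in nearness to Batf, 536 to Eomes and 645 to Il7r, but 12209 to Tcf7, 13234 to Id2 and 13531 to Tox. These are descriptions over 7 tumors of 2 groups.

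No regulator had the same counts in all tumors as another row. Exons of Lef1, Tox and Eomes share 1208, 260 and 118 bases with the antisense genes Gm43352, Gm11802 and Gm33460, which had mean counts of 2.86, 1.71 and 6.86. Whether the counting used strand is not given in the sources used here, so reads from these pairs may not have been kept apart.

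RefSeq promoters of 300 bases, 250 before and 50 after a gene's start on GRCm38.p6, were matched by symbol for 8 of the 9 regulators, 12 promoters in all. They were searched on both strands for motifs of factors among or opposed by the regulators. The TCF/LEF letters CTTTGA were in 1 of the 12, at Lef1, and in 16% of all 32851 promoters of this length. The AP-1 letters TGANTCA, which BATF dimers can bind, were in 1, at Prdm1, and in 7.81% of all, and the T-box letters GGTGTGA were in 0, and in 3.98% of all. The E-box letters CAGNTG, bound by the E proteins that ID2 holds back, were in 9, and in 51.4% of all. The promoters of Il7r, Eomes and Batf are shown because these 3 genes rose together, from the first base of the RefSeq window up to the start of transcription or, for Batf, up to its 5′ exon in GENCODE M21. They come from chr15:9529877-9530126 (minus strand), chr9:118477939-118478188 (plus strand) and chr12:85686470-85686668 (plus strand), and capitals mark the E-box letters, which Eomes lacks in this window. The Il7r window lies inside the gene as M21 draws it, partly over the first exon of another transcript. A match describes letters and not a site.
Il7r: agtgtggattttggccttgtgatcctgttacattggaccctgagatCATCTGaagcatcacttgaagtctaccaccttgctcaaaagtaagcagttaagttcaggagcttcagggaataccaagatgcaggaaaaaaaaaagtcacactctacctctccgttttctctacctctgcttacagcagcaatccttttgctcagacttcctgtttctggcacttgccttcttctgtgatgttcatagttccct
Eomes: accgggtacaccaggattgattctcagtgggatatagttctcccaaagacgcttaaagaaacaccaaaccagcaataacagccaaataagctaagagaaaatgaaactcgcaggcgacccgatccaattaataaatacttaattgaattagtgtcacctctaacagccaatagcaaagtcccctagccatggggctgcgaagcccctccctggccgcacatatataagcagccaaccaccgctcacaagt
Batf: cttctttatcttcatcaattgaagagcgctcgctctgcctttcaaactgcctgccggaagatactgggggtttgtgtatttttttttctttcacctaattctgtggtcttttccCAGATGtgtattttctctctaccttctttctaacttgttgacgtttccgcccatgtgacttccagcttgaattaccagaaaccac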

How the data were processed

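The authors deposited raw counts of reads per gene, one column per tumor, on the mouse build mm10 according to the submitters' processing notes. The aligner, the counting tool, the annotation release and any filter are not given in the sources used here. The labels name polyA RNA and the study's methods a kit for total RNA. Of the 22629 rows, 22414 had a symbol in GENCODE M21, whose GRCm38 coordinates and exon lengths were used. Some identifiers, that of Tcf7 among them, have a newer version in the table than in M21, so the release used for counting was another, and coordinates, TPM and ranks by TPM rest on M21 exons. The length of a gene was that of all its M21 exons together, over all its transcripts. Comparisons of TPM between genes depend on this choice.

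The analysis used edgeR 4.0.16 (R 4.3.3) with filterByExpr (minimum count 10, minimum total 15), TMM scaling and the quasi-likelihood test without covariates, with Benjamini-Hochberg adjustment over all genes tested. The SE is the log2 fold change divided by the square root of F. For the comparison relative to Cd3e, the Cd3e count replaced the library size. A prior count of 2 was added for log2 CPM. P-values weigh the difference between the groups against the spread between these tumors. They do not cover a spread between clones. Alternatives were DESeq2 1.42.0, limma-voom (limma 3.58.1), other scalings, filters and reference genes, robust dispersion, and fits that left out a tumor.

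The members and lists were chosen with earlier results of these data known. Named genes are the 9 regulators, Cd3e, OVA, up to 4 genes per list with the largest change among those past the threshold, the most abundant gene of each list and the nearest gene in profile, and others are said to be named after their values were seen. Trbc1, Tox3, Cr2 and Fcer2a are such genes. Some genes that meet this rule are not reported here. Of the B cell list, 1 gene, and of the skin and muscle list, 2 genes were not among the rows.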

Additional observations from a re-analysis of the deposited data

Results flagged for a closer look

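Among 32 values examined per icOVA tumor (log2 CPM of the 9 regulators, Cd3e and OVA, the log2 ratios to Cd3e and the summed CPM of the lists), 3 had a tumor far from the other 3, and each time it was icOVA tumor 18. Chance gives about 1 in 20, or 1.6 of 32. The gap of tumor 18 to its nearest neighbour was 0.852 of the group's range for the log2 ratio of Tox to Cd3e, where it was lowest. For the log2 ratio of Tbx21 to Cd3e, where it was highest, the gap was 0.862 of the range. For the summed CPM of the epithelial cancer cell markers, where it was lowest, the gap was 0.82938 of the range, just above the critical value of 0.829. Without tumor 18 the log2 fold change of Tox relative to Cd3e was -1.81 and that of Tbx21 relative to Cd3e was -0.56. Groups of 3 tumors were not examined.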

How the results depend on the processing

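With all tumors kept, the log2 fold changes of the 9 regulators kept their direction and their side of the threshold in 67 of 72 comparisons with the alternatives. Calls were added for Tbx21 and Prdm1 by DESeq2, which called 5 regulators higher and, over all genes, 1558 higher and 1278 lower genes, against 588 and 444 by edgeR. The call of Eomes was lost by limma-voom, with total counts and without a filter on low counts. Relative to Cd3e, 78 of 81 planned comparisons kept both. Prdm1 lost its call with Cd4 and Cd8a as the reference (log2 fold change -0.61, adjusted p = 0.0631 from edgeR), and Batf changed sign with Cd4 and Cd8a (0.083) and with Ptprc (0.11) without passing. The number of genes higher relative to Cd3e was 28 by DESeq2, 98 without a filter, 28 with at least 10 counts in every tumor and 83 with Cd4 and Cd8a, against 55.

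With each tumor left out in turn, genes higher ran from 0 to 1014, genes lower from 0 to 716, regulators higher from 0 to 5 and genes higher relative to Cd3e from 45 to 128. No gene passed once tumor 1 or 5 of the sgScramble group or tumor 15 of the icOVA group was dropped, and 6 higher and 2 lower genes passed without icOVA tumor 2, fits with fewer samples. The log2 fold changes of Il7r, Eomes and Batf ran from 0.85 to 1.13, 0.94 to 1.21 and 1.11 to 1.30. Id2 changed sign without sgScramble tumor 4 (-0.096) and without icOVA tumor 2 (-0.024). Relative to Cd3e, Il7r (0.040), Eomes (0.032) and Batf (0.13) changed sign without sgScramble tumor 1. The other end of their ranges was -0.47 for Il7r (without sgScramble tumor 5), -0.47 for Eomes and -0.24 for Batf (both without sgScramble tumor 4). Acta1 changed sign without sgScramble tumor 5 (-0.13) and without icOVA tumor 16 (-0.38), and was 1.25 without sgScramble tumor 4. None of these had passed, and the cause was not tested. Other scalings moved the median log2 fold change of all genes by less than 0.1.

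No paired analysis was possible because no tumor number occurs in both groups, and the legend that calls the cells paired does not say which tumors would form a pair. The exact permutation test of the ratios to Cd3e was added after the data were seen.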
